A study of Mus musculus with 22 samples.

Results

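The host genes of small nucleolar RNAs (snoRNAs) described here are 9 noncoding mouse genes: Gas5, Snhg1, Snhg5, Snhg6, Snhg8, Snhg12, 1500012F01Rik (Zfas1 in GENCODE), Epb4.1l4aos (Epb41l4aos in GENCODE) and 2410006H16Rik. They were named one by one, all 9 have a value in every library, and they stand among 24421 gene symbols with a row in the count files. The choice was made with earlier results of these data known, and which values made it is not stated. Levels in gradient fractions were treated as those values, so they are given as a description with no test. Tests are kept to the difference between genotypes. Their p-values take no account of any part that this difference had in the choice. All 9 passed the filter on low counts in every comparison.

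RNA was sequenced from mouse bladder organoids, which are epithelial cultures grown in 3 dimensions. Arid1a knockout (KO) organoids were compared with Arid1a wild type (WT) organoids. Arid1a encodes a subunit of the BAF chromatin remodelling complex. From primary bladder urothelial organoids, the polysome fraction, the subpolysome fraction and total RNA were each sequenced from 3 KO and 3 WT samples, with fractions taken from a 10% to 50% sucrose gradient. Total RNA of bladder cancer organoids, described by the submitters as isogenic, came from 2 libraries labelled KO and 2 labelled WT. The labels also call the cancer samples tissue. No label or protocol names the strain, the cancer's mutations or the way Arid1a was removed. Nor do the labels tie replicates to separate animals or cultures. A p-value here therefore weighs a difference against the spread among libraries, and that spread may be only technical. Fewer cells of a type and less RNA per cell cannot be told apart in such bulk samples.

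A snoRNA is a short RNA that guides the chemical modification of other RNAs, mainly ribosomal RNA. Box C/D snoRNAs guide the methylation of ribose and box H/ACA snoRNAs guide the conversion of uridine to pseudouridine. Most mammalian snoRNAs are cut from the introns of longer transcripts after splicing. In noncoding host genes the introns hold the product, and the spliced exons hold no long conserved reading frame. Several of these spliced RNAs, Gas5 first among them, are known to begin with a run of pyrimidines as ribosomal protein mRNAs do, to be bound by ribosomes at short reading frames near their start, and to be removed by nonsense-mediated decay. A sucrose gradient sorts RNA by the size of the complex that carries it. RNAs with several ribosomes sediment in the polysome fraction, and those with few or none stay in the subpolysome fraction.

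The annotation used to describe the genes (GENCODE M21, build GRCm38, which is mm10) places 32 snoRNA genes inside the 9 hosts on the same strand, and 31 of them lie in introns. By sequence, 22 carry a C box (TGATGA within the first 15 bases) and a D box (CTGA within the last 15 bases). In another 4, longer than 100 bases, the letters ACA stand 3 bases before the 3′ end, as in H/ACA snoRNAs, and in 6 neither pattern was found. Gas5 holds 9 snoRNA genes, Snhg1 holds 8, Snhg12 holds 4, 1500012F01Rik and 2410006H16Rik hold 3 each, Snhg5 holds 2, and Snhg6, Snhg8 and Epb4.1l4aos hold 1 each. The map of exons and snoRNA genes shows several introns without one. Snora24 is the only one outside an intron, within the 1 exon of the Snhg8 model.

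**Figure D1:**
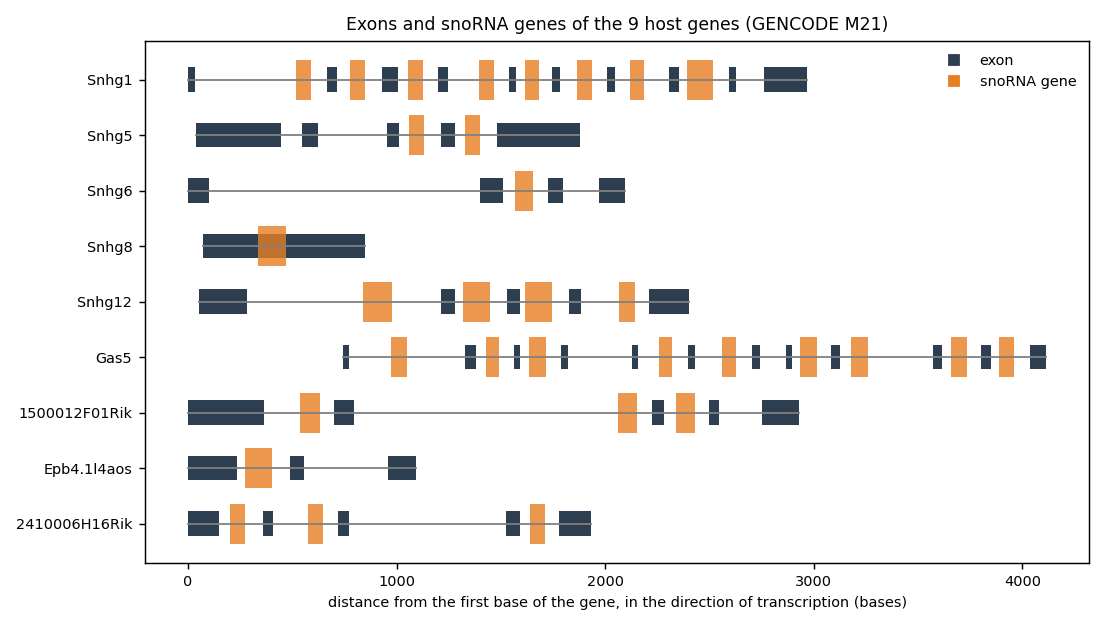
Each line is 1 host gene, drawn to scale by distance in bases from the first base of the gene in the direction of transcription. Dark boxes are exons of 1 transcript model and orange boxes are annotated snoRNA genes; 31 of the 32 snoRNA genes lie between exons.

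The 3 snoRNAs of 1500012F01Rik, the host that was lower in every KO library than in every WT library of all 3 kinds of RNA, are shown with their C box and D box in capitals. They lie on chromosome 2 on the plus strand of GRCm38, at chr2:167063473-167063565 (Gm25878), chr2:167064998-167065086 (Gm23201) and chr2:167065276-167065365 (Snord12), and end 70, 72 and 68 bases before the next exon.
Gm25878: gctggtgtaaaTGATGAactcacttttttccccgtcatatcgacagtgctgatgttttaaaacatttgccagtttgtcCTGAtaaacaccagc
Gm23201: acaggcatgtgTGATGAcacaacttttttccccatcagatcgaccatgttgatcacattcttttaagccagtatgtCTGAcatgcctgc
Snord12: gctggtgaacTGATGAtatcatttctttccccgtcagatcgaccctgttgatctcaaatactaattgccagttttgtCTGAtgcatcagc

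The start of each spliced transcript is shown because a pyrimidine run there is the feature these RNAs are known to share with ribosomal protein mRNAs. RefSeq promoter sequences (GRCm38.p6) were matched for 7 of the 9 hosts. The windows run from 20 bases before the annotated start to 30 bases after it, and capitals mark the longest unbroken run of C or T. They lie on chromosome 19 at chr19:8723467-8723516 (plus strand) for Snhg1, chr9:88522868-88522917 (minus) for Snhg5, chr3:123508307-123508356 (minus) for Snhg8, chr4:132308658-132308707 (plus) for Snhg12, chr1:161035146-161035195 (plus, the second of 2 starts) for Gas5, chr2:167062914-167062963 (plus) for 1500012F01Rik and chr11:62602857-62602906 (plus) for 2410006H16Rik.
Snhg1: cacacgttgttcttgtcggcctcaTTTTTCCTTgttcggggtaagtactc
Snhg5: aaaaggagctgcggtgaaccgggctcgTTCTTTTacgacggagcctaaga
Snhg8: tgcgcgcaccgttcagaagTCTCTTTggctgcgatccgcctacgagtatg
Snhg12: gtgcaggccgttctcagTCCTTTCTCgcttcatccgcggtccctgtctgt
Gas5: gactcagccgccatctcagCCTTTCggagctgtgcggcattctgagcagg
1500012F01Rik: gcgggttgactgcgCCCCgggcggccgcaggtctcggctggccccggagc
2410006H16Rik: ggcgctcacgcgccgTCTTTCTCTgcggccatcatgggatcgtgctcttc

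The runs were 9 bases long in Snhg1, Snhg12 and 2410006H16Rik, a length reached in 12.61% of all 32851 RefSeq promoters in the same window. In Snhg5 and Snhg8 they had 7 bases (28.57% of promoters) and in the Gas5 window shown the run had 6 (43% of promoters), while the run of 1500012F01Rik had 4 (83.91%). At the other annotated Gas5 start the longest run had 3 bases, a length reached in 96.29% of promoters. The median over all promoters was 5 bases. These matches are a description of letters near an annotated start and show no binding or use of them.

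Spliced lengths ranged from 400 bases (Snhg6) to 1004 bases (Snhg5), and the longest reading frame of any host spanned 79 codons (1500012F01Rik). Counted from the first ATG, reading frames were between 1 codon (Snhg8) and 54 codons (Snhg12) long. These short first frames are printed for 4 hosts with the frame, from ATG to stop, in capitals.
Snhg5: tacagtcggATGACCAAGTGAaatata
Snhg8: cctacgagtATGTAGttgtat
Gas5: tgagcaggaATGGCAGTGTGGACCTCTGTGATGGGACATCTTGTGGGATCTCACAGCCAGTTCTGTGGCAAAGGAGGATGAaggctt
1500012F01Rik: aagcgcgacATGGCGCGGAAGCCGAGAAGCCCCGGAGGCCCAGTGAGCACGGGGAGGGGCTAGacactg

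The first frames of Snhg5, Gas5 and 1500012F01Rik have 3, 23 and 17 codons. An exon junction more than 50 bases downstream of a stop codon is a known trigger of nonsense-mediated decay. Of the junctions in each model, 7 of 11 lay that far beyond the first stop in Gas5, 5 of 9 in Snhg1, all 4 in Snhg5 and in 1500012F01Rik, and 0 in the single-exon model of Snhg8. The number was 3 of 4 in Snhg12, 2 of 4 in 2410006H16Rik, 2 of 2 in Epb4.1l4aos and 1 of 3 in Snhg6.

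Polysome libraries held 64911189 to 76594655 counts, subpolysome libraries 39245248 to 51628570, total RNA libraries 66227600 to 74605489 and cancer libraries 48429672 to 55431426. A level is given in CPM, the count scaled to a library total of 1000000, so 1 CPM rests on at least 39.2 counts. Arid1a itself had 93.2 to 106 CPM in KO total RNA and 139 to 156 CPM in WT total RNA, and which part of it was deleted is not stated in the labels. In polysomes it had 28.7, 23.0 and 15.3 CPM in KO organoids and 40.4, 27.6 and 22.9 CPM in WT organoids, and in subpolysomes 47.8, 43.0 and 39.2 CPM in KO organoids and 42.9, 39.9 and 33.7 CPM in WT organoids, so only total RNA separated the genotypes. In the cancer libraries Arid1a did not follow the labels, with 201 and 64.1 CPM in libraries labelled KO and 79.2 and 228 CPM in libraries labelled WT. Summed urothelial and basal epithelial markers (12 genes) stood at 8502 to 18540 CPM in all 22 libraries, with Upk2 and Upk3a at 0 in the cancer libraries. Single markers within the sum differed between the genotypes, and their values stand with the genotype comparison. Lyz2 was at 0 throughout and Ptprc was at 0.848 CPM at most.

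The 9 host genes were low in polysomes and high in subpolysomes in both genotypes. Their summed level was 176 ± 28.9 CPM in KO polysomes against 3553 ± 143 CPM in KO subpolysomes and 665 ± 27.2 CPM in KO total RNA (SD, n = 3 each). In WT organoids the sum was 178 ± 16.2 CPM in polysomes, 4146 ± 241 CPM in subpolysomes and 767 ± 28.9 CPM in total RNA (SD, n = 3 each). The polysome sum of KO replicate 3 was 208 CPM, above 167 and 152 CPM in KO replicates 1 and 2, and it lay above every WT polysome library. Every member was higher in each subpolysome library than in any total RNA or polysome library of its genotype. Polysome libraries lay below all total RNA libraries of their genotype, except for Snhg5 in KO organoids, whose ranges overlapped.

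Gas5, with the most reads of the 9, is a host of box C/D snoRNAs whose spliced RNA is known to accumulate in growth-arrested cells. It stood at 50.4, 48.4 and 68.2 CPM in the 3 KO polysome libraries, at 1418, 1433 and 1298 CPM in KO subpolysomes and at 233, 241 and 238 CPM in KO total RNA. Its WT levels were 47.6, 62.5 and 65.4 CPM in polysomes, 1507, 1753 and 1719 CPM in subpolysomes and 274, 279 and 296 CPM in total RNA. The polysome ranges of the genotypes overlapped, while every KO library was below every WT library in subpolysomes and in total RNA.

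Snhg5, host of Snord50a and Snord50b, differed least between the fractions. It had 26.8, 25.1 and 29.1 CPM in KO polysomes, 93.7, 88.3 and 90.7 CPM in KO subpolysomes and 28.9, 32.8 and 34.1 CPM in KO total RNA. In WT organoids it had 25.1, 27.7 and 28.1 CPM in polysomes, 112, 113 and 125 CPM in subpolysomes and 39.9, 38.1 and 44.4 CPM in total RNA. Of the reads on the 9 hosts, Snhg5 took 15.5% in KO polysomes and 15.2% in WT polysomes, against 2.56% in KO subpolysomes and 2.81% in WT subpolysomes.

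1500012F01Rik had 18.7, 14.9 and 19.3 CPM in KO polysomes, against 21.2, 22.3 and 22.8 CPM in WT polysomes. In subpolysomes it had 397, 418 and 387 CPM in KO organoids, against 537, 528 and 534 CPM in WT organoids. In total RNA the KO values were 76.9, 82.9 and 86.3 CPM, against WT values of 106, 104 and 114 CPM. It was the only member of the 9 with all KO libraries below all WT libraries in each of the 3 kinds of RNA.

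Epb4.1l4aos, host of 1 snoRNA gene on chromosome 18, was the only member with all KO libraries above all WT libraries in any kind of RNA. In polysomes it had 4.05, 3.59 and 5.17 CPM in KO organoids, against 2.31, 2.48 and 2.11 CPM in WT organoids. These low levels rest on 249 to 355 counts per KO library and 137 to 181 counts per WT library. In total RNA it had 26.4, 30.9 and 28.4 CPM in KO organoids, against 26.0, 21.1 and 24.5 CPM in WT organoids, and in subpolysomes 116, 160 and 119 CPM in KO organoids, against 115, 119 and 94.4 CPM in WT organoids. The subpolysome ranges overlapped, and KO replicate 2 was the highest library.

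Snhg8, host of the H/ACA snoRNA Snora24, had 7.44, 5.02 and 8.09 CPM in KO polysomes, against 7.04, 6.29 and 8.89 CPM in WT polysomes. Its subpolysome levels were 143, 156 and 148 CPM in KO organoids, against 172, 218 and 211 CPM in WT organoids, and its total RNA levels were 30.2, 32.7 and 30.9 CPM in KO organoids, against 39.5, 37.0 and 42.0 CPM in WT organoids. Only the polysome ranges overlapped between the genotypes.

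The remaining 4 members had overlapping genotypes in polysomes and total RNA. Snhg1 ranged from 21.6 to 32.6 CPM in KO polysomes, 264 to 320 CPM in KO subpolysomes and 50.3 to 54.3 CPM in KO total RNA, against 21.6 to 26.9, 288 to 329 and 47.7 to 58.4 CPM in the same WT kinds of RNA. Snhg6, host of Snord87, ranged from 3.50 to 4.03 CPM in KO polysomes, 121 to 140 CPM in KO subpolysomes and 25.5 to 28.8 CPM in KO total RNA, against 3.74 to 4.85, 141 to 152 and 27.9 to 34.8 CPM in WT. In subpolysomes the genotypes overlapped for Snhg1, Snhg12 and 2410006H16Rik but not for Snhg6. 2410006H16Rik, host of Snord49a, Snord49b and Snord65, ranged from 25.3 to 37.5 CPM in KO polysomes, 880 to 964 CPM in KO subpolysomes and 142 to 160 CPM in KO total RNA, against 26.1 to 30.03, 915 to 1077 and 157 to 167 CPM in WT. Snhg12 ranged from 3.26 to 4.41 CPM in KO polysomes, 53.9 to 71.6 CPM in KO subpolysomes and 20.7 to 26.7 CPM in KO total RNA, against 2.77 to 4.64, 63.3 to 81.1 and 24.4 to 25.2 CPM in WT.

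**Figure D2:**
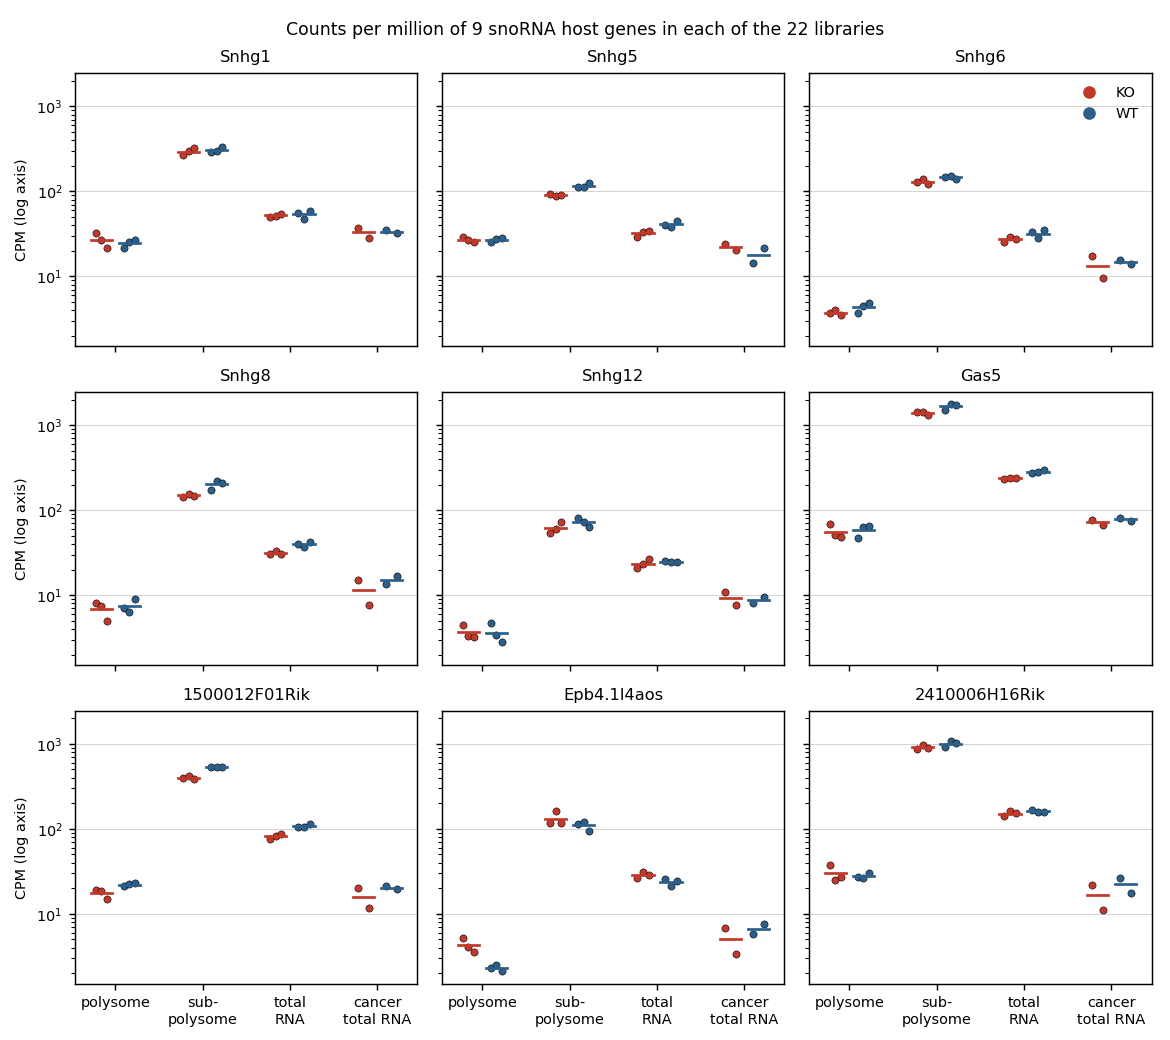
CPM on a log axis for each host gene; points are libraries and lines are group means, with KO libraries left of WT libraries in polysome, subpolysome, total RNA and cancer total RNA (3 libraries a group, 2 in cancer). Each gene peaks in subpolysomes, with Gas5 at 1298 to 1753 CPM, and Epb4.1l4aos shows KO above WT in polysomes.

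Set per kilobase of 1 chosen spliced transcript model for each gene, Gas5 was the highest in total RNA (473 ± 8.29 CPM per kb in KO organoids and 563 ± 23.1 in WT organoids; SD, n = 3 each). 2410006H16Rik followed at 328 ± 19.2 CPM per kb in KO organoids and 348 ± 11.2 in WT organoids, and 1500012F01Rik at 111 ± 6.40 and 146 ± 7.45. The order then ran through Snhg1, Snhg6, Epb4.1l4aos, Snhg8 and Snhg12 to Snhg5 in both genotypes, with Snhg5 at 31.8 ± 2.70 CPM per kb in KO organoids and 40.65 ± 3.19 in WT organoids. Ranges of the neighbours in this order overlapped for Snhg6 with Epb4.1l4aos and Snhg8 with Snhg12 in KO organoids, and for Snhg1 with Snhg6, Epb4.1l4aos with Snhg8 and Snhg12 with Snhg5 in WT organoids. This order rests on the models: per kilobase of all annotated exons, of which the 25 Gas5 transcripts cover 3760 bases, 2410006H16Rik was highest in total RNA (328 ± 19.3 CPM per kb in KO organoids and 348 ± 11.2 in WT organoids) and Gas5 stood at 63.1 ± 1.11 in KO organoids and 75.2 ± 3.08 in WT organoids (SD, n = 3 each). This length was tried after the data were seen, and the annotation behind the deposited counts is not given in the sources used here. On the chosen models, in KO polysomes Snhg5 stood at 26.9 CPM per kb (SD 1.998), behind Gas5 at 111 ± 21.7, 2410006H16Rik at 64.7 ± 14.4 and Snhg1 at 44.7 ± 9.06 (SD, n = 3). Its range there overlapped that of 1500012F01Rik, at 23.9 ± 3.20. In WT polysomes 1500012F01Rik, at 29.97 ± 1.12, stood above Snhg5, at 26.85 ± 1.66, without overlap.

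On the log2 scale of a fit that sets the typical gene near 0, the polysome to subpolysome ratio had a median over the 9 of -5.39 in KO organoids and -5.59 in WT organoids, against 0.01 over all 13392 genes fitted in each genotype. It was -5.995 (SE 0.15) for Snhg6, -5.82 (SE 0.18) for Epb4.1l4aos and -5.80 (SE 0.20) for 2410006H16Rik in KO organoids. In WT organoids Epb4.1l4aos was lowest at -6.40 (SE 0.19), with 11 of all genes below it, before 2410006H16Rik at -6.01 (SE 0.20) and Snhg6 at -5.91 (SE 0.15). At the other end stood Snhg1 at -4.32 (SE 0.19) in KO organoids and -4.46 (SE 0.19) in WT organoids, and Snhg5 at -2.64 (SE 0.14) in KO organoids and -2.94 (SE 0.14) in WT organoids. All 9 ratios were at or below -2, where 6.62% of all genes lay in KO organoids and 7.4% in WT organoids. Since these levels were treated as the values behind the choice of members, nothing is read from those counts.

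The subpolysome to total RNA ratio was narrower. Its median over the 9 was 3.236 in KO organoids and 3.252 in WT organoids, from 2.38 (Snhg12) to 3.58 (2410006H16Rik) in KO organoids and from 2.46 (Snhg5) to 3.59 (2410006H16Rik) in WT organoids. All 9 were at or above 2, where 4.68% of all genes lay in KO organoids and 5.23% in WT organoids. The polysome to total RNA ratio spread the members more widely, with a median of -2.13 in KO organoids and -2.33 in WT organoids. Snhg5 stood at -0.15 (SE 0.11) in KO organoids and -0.51 (SE 0.11) in WT organoids, and Snhg1 at -0.85 (SE 0.15) and -1.04 (SE 0.15). The lowest were Snhg6 at -2.78 (SE 0.13) in KO organoids and Epb4.1l4aos at -3.29 (SE 0.16) in WT organoids. At or below -2 were 6 of 9 members in KO organoids and 7 of 9 in WT organoids, against 1.64% and 2.32% of all genes.

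These ratios are relative to other RNAs of the same library and say nothing of how much RNA a fraction held. The scaling matters for their size, because subpolysome libraries had scaling factors of 0.70 to 0.81 beside polysome libraries and polysome libraries had 1.26 to 1.42. With library totals alone the polysome to subpolysome medians were -4.51 in KO organoids and -4.76 in WT organoids, while the median of all genes moved to 0.90 and 0.84. Relative to the median of all genes, the distance was -5.40 in both ways for KO organoids, and -5.60 and -5.59 for WT organoids.

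Other gene lists are set beside the 9 hosts for the polysome to subpolysome ratio. A list of 15 other noncoding host genes had 10 members with enough counts, and their median was -4.10 in KO organoids and -4.77 in WT organoids. Of the 15 symbols 12 were found in the annotation, and 9 of those hold a snoRNA gene on their strand. Snhg4, Snhg7 and Snhg16 were not found there, so their snoRNA genes were not counted. Snhg17 had the highest ratio of the 10 at -1.995 (SE 0.12) in KO organoids and -2.003 (SE 0.12) in WT organoids. Ribosomal protein genes, chosen by symbol, had medians of -3.50 in KO organoids and -3.59 in WT organoids over 78 genes. Nuclear long noncoding RNAs (Malat1, Neat1 and Kcnq1ot1) had medians of -4.27 in KO organoids and -3.87 in WT organoids, and 434 long noncoding genes of the annotation outside the 9, which may include genes of the lists just named, had medians of -1.43 and -1.54. In contrast, 24 protein-coding genes listed as snoRNA hosts had medians of -0.71 in KO organoids and -0.72 in WT organoids, with a range in KO organoids of -4.51 to 1.06. Of those 24, 23 hold an annotated snoRNA gene, and Toe1 does not.

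**Figure D3:**
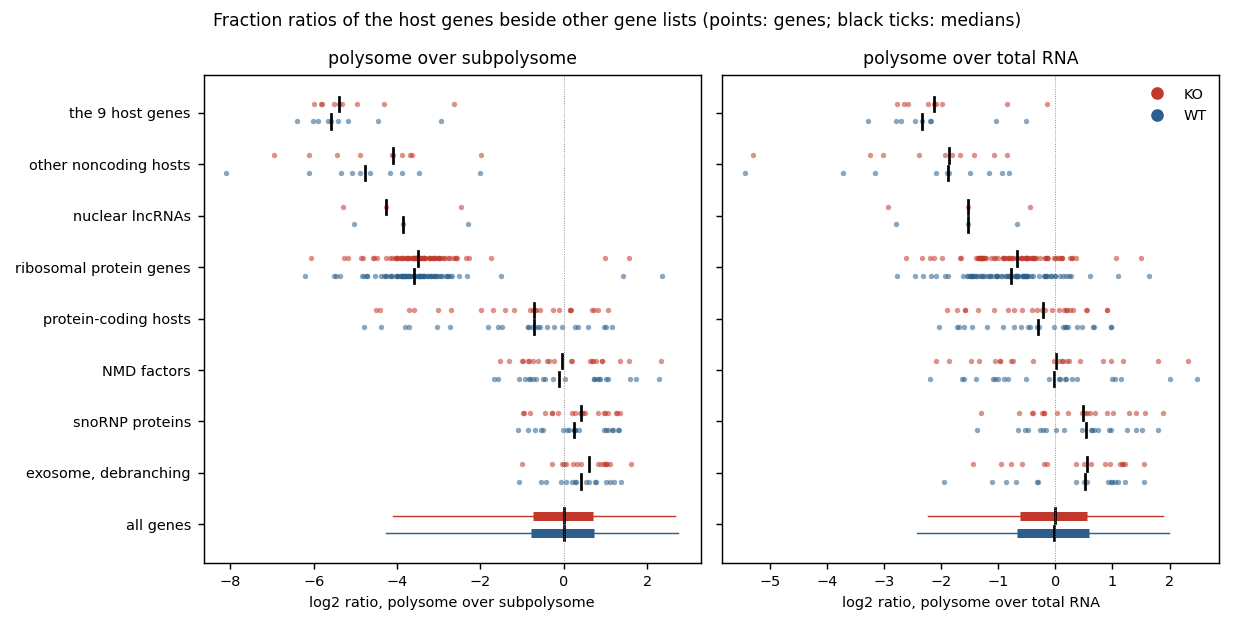
Fitted log2 ratios of polysome over subpolysome (left) and polysome over total RNA (right), KO above WT in each list; points are genes and black ticks are medians. For all genes the thick bar spans the quartiles and the thin line spans the 1st to 99th percentiles. The 9 host genes have medians of -5.39 (KO) and -5.59 (WT) on the left, and Snhg5 is the point farthest to the right among them in both panels.

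The genes whose pattern over the 6 organoid groups was nearest to the mean pattern of the 9 were ranked by root mean square difference of centred log2 levels, among 9152 genes with a mean of at least 8 CPM. Nearest was the long noncoding gene 5430416N02Rik (0.071), followed by Sepw1 (0.128), Toporsos (0.142), Rpl39 (0.142) and Gm11974 (0.150). The next 5 were Tmsb4x (0.206), Eef2 (0.210), 1700020I14Rik (0.219), Rps28 (0.222) and Rps29 (0.242). The median over the eligible genes was 2.19. Among the members themselves Snhg8 (0.142), 1500012F01Rik (0.179) and Gas5 (0.216) were nearest to the mean pattern and Snhg5 (0.981) was farthest. Eef2 encodes elongation factor 2 and holds 1 annotated snoRNA gene, and Rpl39, Rps28 and Rps29 encode ribosomal proteins.

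Between the genotypes in total RNA, 1500012F01Rik, Snhg5, Snhg8, Gas5 and Snhg6 fell and Epb4.1l4aos rose in KO organoids. By edgeR's quasi-likelihood test with Benjamini-Hochberg adjustment over 13198 genes, 6 of 9 passed at an adjusted p below 0.05, of which 5 fell and 1 rose in KO organoids. That count is read against a background of 53.2% of all genes called, with 26.3% lower and 27% higher, so the share of members called is near that of all genes. The median log2 fold change of KO over WT was -0.24 over the 9 and 0.00 over all genes. Every KO library was below every WT library for 4 members, against 27.8% of all genes, and above for 1 member, against 33.3%. In all, 5 of 9 members had no overlap between genotypes, against 61.1% of all genes.

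1500012F01Rik fell by 0.42 on the log2 scale (SE 0.05, adjusted p 3.9e-05 in edgeR), with KO libraries lower in 3 of 3. Snhg5 fell by 0.38 (SE 0.07, adjusted p 0.0011 in edgeR) and Snhg8 fell by 0.36 (SE 0.06, adjusted p 0.0004 in edgeR). Gas5 fell by 0.27 (SE 0.04, adjusted p 0.0002 in edgeR), the equivalent of a 1.21-fold lower level. All 4 had KO libraries below WT libraries without overlap. Snhg6 fell by 0.24 (SE 0.08, adjusted p 0.025 in edgeR), with overlapping libraries, and it missed the threshold when any one of KO replicates 1 and 3 or WT replicates 1 and 3 was left out (adjusted p 0.056 to 0.10).

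Epb4.1l4aos was the member that rose in total RNA, by 0.24 on the log2 scale (SE 0.08, adjusted p 0.033 in edgeR). Without any one of KO replicates 2 and 3 or WT replicates 2 and 3 it no longer passed, with adjusted p between 0.054 and 0.13. The other 3 members did not pass: Snhg1 had a log2 fold change of -0.07 (SE 0.07), Snhg12 of -0.10 (SE 0.08) and 2410006H16Rik of -0.11 (SE 0.05), with adjusted p in edgeR of 0.40, 0.33 and 0.084. Snhg1 passed without WT replicate 2 (adjusted p 0.033) and 2410006H16Rik without KO replicate 2 (adjusted p 0.028). When total RNA was fitted together with the fractions, over all 18 organoid libraries with a shared spread, only 1500012F01Rik and Snhg5 passed, and 27.4% of all genes did.

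In the polysome fraction 1 of 9 members passed by edgeR, against a background of 28.8% of all genes called, 14.9% higher and 13.8% lower. Epb4.1l4aos rose by 0.85 on the log2 scale (SE 0.21, adjusted p 0.0058 in edgeR), a 1.81-fold higher level in KO polysomes, higher in 3 of 3 KO libraries. It passed in all 13 alternative settings, with adjusted p from 0.00022 to 0.029. 1500012F01Rik had a log2 fold change of -0.37 (SE 0.15, adjusted p 0.069 in edgeR), with all KO libraries below all WT libraries. Same-numbered KO and WT polysome libraries deviated together, and with the replicate number as a block 1500012F01Rik also passed (log2 fold change -0.38, adjusted p 0.011 in edgeR), which makes 2 of 9, against 38.5% of all genes. It passed without KO replicate 3 as well (adjusted p 0.019). The other 7 lay between -0.26 (Snhg6) and 0.09 (Snhg1), with standard errors of 0.14 to 0.22 and adjusted p of 0.36 or more. KO libraries were all above WT for 1 member and all below for 1 member, against 22.2% and 17.8% of all genes, and 40% of all genes had no overlap in either direction.

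In the subpolysome fraction 3 of 9 members passed, all lower in KO organoids, against a background of 22% of all genes called and 11% called lower. Snhg8 fell by 0.41 on the log2 scale (SE 0.12, adjusted p 0.014 in edgeR), 1500012F01Rik fell by 0.39 (SE 0.11, adjusted p 0.010 in edgeR) and Snhg5 fell by 0.33 (SE 0.11, adjusted p 0.033 in edgeR). Every KO library was below every WT library for 5 members, these 3 with Gas5 and Snhg6, against 18.9% of all genes. KO libraries were all above WT for 0 members, against 15%, and 33.8% of all genes had no overlap in either direction. Gas5 had a log2 fold change of -0.24 (SE 0.13, adjusted p 0.19 in edgeR) and Snhg6 of -0.16 (SE 0.10, adjusted p 0.31 in edgeR). These calls depended on single libraries: none of the 9 passed without WT replicate 2, and only 1500012F01Rik passed without WT replicate 3. Epb4.1l4aos had a log2 fold change of 0.29 (SE 0.12, adjusted p 0.081 in edgeR). With the replicate number as a block it passed (log2 fold change 0.28, adjusted p 0.024 in edgeR). That makes 4 of 9 members, beside 3239 of all 12645 genes.

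**Figure D4:**
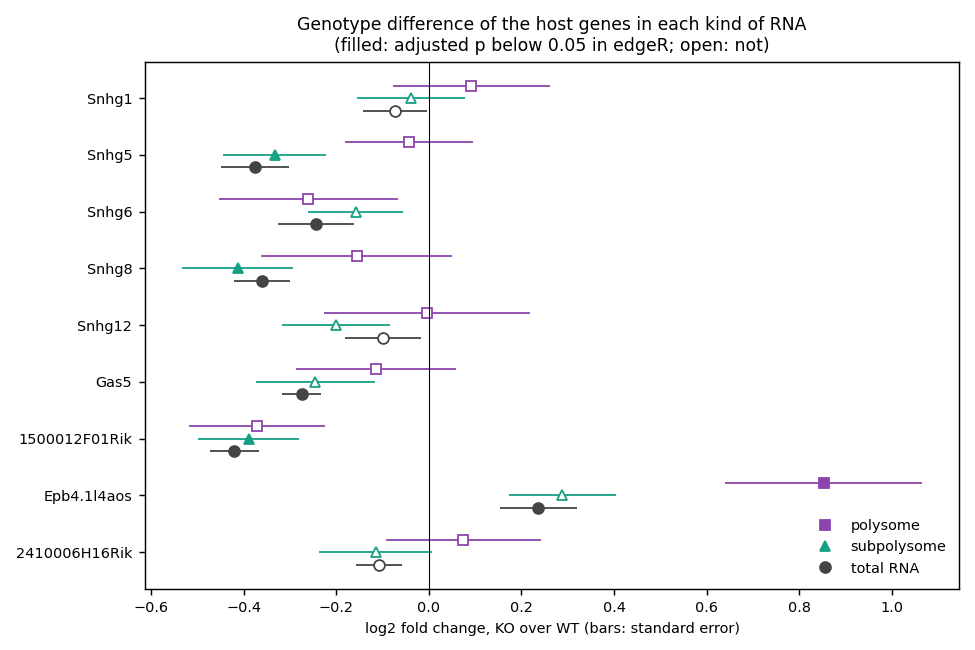
Fitted log2 fold changes of KO over WT with standard errors in polysomes (squares), subpolysomes (triangles) and total RNA (circles), 3 KO and 3 WT libraries each; filled symbols passed an adjusted p of 0.05 in edgeR. 1500012F01Rik, Snhg5 and Snhg8 lie left of 0 in subpolysomes and total RNA, and Epb4.1l4aos lies farthest to the right, at 0.85 in polysomes.

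Whether the genotype effect differed between kinds of RNA was tested as an interaction. None of the 9 passed in any of the 3 interactions by edgeR or by DESeq2, where 0.00747% (polysome against subpolysome), 0% (polysome against total RNA) and 0.0298% (subpolysome against total RNA, 0.00745% higher and 0.0224% lower) of all genes passed by edgeR. In the same order 1, 2 and 0 of the 9 had an unadjusted p below 0.05 in edgeR, beside 758 of 13392, 263 of 13507 and 879 of 13414 genes tested. Epb4.1l4aos had a larger KO effect in polysomes than in total RNA by 0.64 (SE 0.21, adjusted p 1.00 in edgeR) and than in subpolysomes by 0.58 (SE 0.22, adjusted p 0.88 in edgeR), on the log2 scale. Snhg5, called lower in total RNA and subpolysomes but not in polysomes, had interactions of 0.36 (SE 0.15) with total RNA and 0.31 (SE 0.18) with subpolysomes, with adjusted p of 1.00 and 0.91 in edgeR. So a lower level in total RNA and an overlapping level in polysomes is not shown to be a difference between them. Over the 9, interactions of polysomes ranged from -0.09 to 0.58 against subpolysomes and from 0.01 to 0.64 against total RNA, and those of subpolysomes against total RNA from -0.11 to 0.07. The comparisons share libraries.

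Other measures moved with genotype beside these results. The nuclear RNA Malat1 had 27.9 to 40.6 CPM in KO total RNA and 12.9 to 15.01 CPM in WT total RNA, and its log2 fold change of KO over WT was 1.31 (SE 0.12) in total RNA, 1.28 (SE 0.19) in polysomes and 1.57 (SE 0.17) in subpolysomes. Neat1 had log2 fold changes of 0.89 (SE 0.15), 0.74 (SE 0.19) and 1.15 (SE 0.15) in the same order. Rn45s, the ribosomal RNA precursor, took 0.880% to 5.59% of counts in KO subpolysomes and 0.439% to 0.983% in WT subpolysomes, and 3 members passed there with Rn45s left out of the totals too. In total RNA, summed leukocyte markers stood at 104 to 107 CPM in KO organoids and 67.8 to 83.8 CPM in WT organoids, nearly all of it Cd14 and Cd68, with Ptprc at 0. Summed smooth muscle markers stood at 20.3 to 21.9 CPM in KO organoids and 5.87 to 6.74 CPM in WT organoids, nearly all of it Acta2, and fibroblast markers at 2.00 to 2.35 and 3.54 to 4.41 CPM. Markers of differentiated urothelium moved too: in total RNA Upk3a stood at 93.0 to 122.5 CPM in KO organoids and 19.2 to 20.6 CPM in WT organoids. Upk1a stood at 232 to 292 CPM in KO organoids and 76.8 to 79.1 CPM in WT organoids. These encode uroplakins, membrane proteins of the umbrella cells that line the bladder, as does Upk2, at 13.6 to 16.4 CPM in KO organoids and 2.51 to 3.66 CPM in WT organoids. Krt8 stood at 339 to 408 CPM in KO organoids and 159 to 164 CPM in WT organoids, while Epcam stood lower in KO organoids, at 163 to 213 CPM against 497 to 614 CPM in WT organoids. Each of these 5 genes lay on the same side, with no overlap, in polysomes and subpolysomes. The rest of the listed urothelial and basal markers went both ways in total RNA. Krt7 (2484 to 2672 CPM in KO organoids, 2994 to 3110 in WT organoids), Krt14 (1729 to 1850, 2147 to 2541) and Cdh1 (271.3 to 308.2, 363.6 to 384.5) stood lower in KO organoids. Trp63 (362.1 to 406, 242 to 273.5), Upk1b (168.4 to 194.2, 79.51 to 95.13) and Krt18 (696.4 to 816, 592.8 to 642.8) stood higher, and Krt5 overlapped. The part of these measures in the host gene results was not tested.

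Genes next to the hosts are given because no source used here says whether counting kept to the strand, so reads of overlapping genes on opposite strands cannot be told apart. Gas5 overlaps Zbtb37 over 428 bases, 1500012F01Rik overlaps Znfx1 over 82 bases and Snhg6 overlaps Mcmdc2 over 127 bases, each on the opposite strand. Zbtb37 had 2.75 ± 0.28 CPM in KO total RNA and 3.53 ± 0.69 CPM in WT total RNA (SD, n = 3 each), and Mcmdc2 had 0.072 ± 0.033 and 0.014 ± 0.014 CPM. Znfx1 had 31.5 ± 1.20 CPM in KO total RNA and 30.5 ± 1.97 CPM in WT total RNA, with a log2 fold change of 0.03 (SE 0.06, adjusted p 0.74 in edgeR), beside the fall of 1500012F01Rik.

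Other hosts have a protein-coding neighbour within 1000 bases on the opposite strand, with no overlap. Prss12, 954 bases from Snhg8, fell by 2.26 on the log2 scale in total RNA (SE 0.11), with 5.64 ± 0.77 CPM in KO organoids and 26.6 ± 3.11 CPM in WT organoids. Epb4.1l4a, 340 bases from Epb4.1l4aos, fell by 0.28 in total RNA (SE 0.05, adjusted p 0.0006 in edgeR) where Epb4.1l4aos rose. Slc3a2, 105 bases from Snhg1, rose by 0.55 (SE 0.05) and Lrrc75a, 76 bases from 2410006H16Rik, rose by 0.95 (SE 0.09), while neither host passed. Trnau1ap, 738 bases from Snhg12, had a log2 fold change of -0.04 (SE 0.06, adjusted p 0.57 in edgeR). The neighbours were chosen by distance alone.

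Of the snoRNAs themselves, 12 of the 32 have a row in the count files, and their counts were few. The highest was Snord22 in Snhg1, with 82 to 104 counts in libraries labelled KO and 58 to 79 in libraries labelled WT of the cancer organoids, and 24 to 37 counts in KO subpolysomes against 13 to 37 in WT subpolysomes. Snord12 in 1500012F01Rik had 9 to 50 counts in KO subpolysomes and 28 to 31 in WT subpolysomes, and 3 to 10 counts in KO total RNA and 7 to 13 in WT total RNA. Snora24, which lies within the exon of the Snhg8 model, was at 0 in all 22 libraries. Reads there cannot be told apart from those of Snhg8, so this 0 does not show that the snoRNA was absent. In polysomes none of the 12 exceeded 3 counts in a library. No genotype comparison of mature snoRNAs was made on such counts.

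Genes that make or act on snoRNAs and their hosts were described by lists. Lists were chosen with results known and got no test of their own, and their counts stand beside 53.2% of all genes called in total RNA (27% higher, 26.3% lower), 28.8% in polysomes and 22% in subpolysomes. Of 20 snoRNP core and assembly proteins tested, 6 rose and 1 fell in KO total RNA, 0 passed in polysomes, and 1 rose and 1 fell in subpolysomes. Fbl, the methyltransferase of box C/D particles, rose by 0.31 on the log2 scale (SE 0.05, adjusted p 0.00017 in edgeR) and Gar1, a protein of H/ACA particles, rose by 0.29 (SE 0.08, adjusted p 0.0064). Nop10, another H/ACA protein, fell by 0.37 in total RNA (SE 0.05, adjusted p 4e-05 in edgeR) and by 0.55 in subpolysomes (SE 0.13, adjusted p 0.0019). The list median was 0.05 in total RNA, against 0.00 for all genes.

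Of 22 factors of nonsense-mediated decay, 8 rose and 3 fell in KO total RNA, near the 53.2% of all genes called, with a median log2 fold change of 0.07. Nbas rose by 0.40 (SE 0.07), and Gspt1, a translation release factor, rose by 0.21 (SE 0.04). Smg1, the kinase that phosphorylates Upf1, rose by 0.26 in total RNA (SE 0.05, adjusted p 0.00055 in edgeR) and by 0.42 in subpolysomes (SE 0.11, adjusted p 0.0077). In polysomes 1 of 22 passed, against 28.8% of all genes: Magohb, a subunit of the exon junction complex, fell by 0.65 (SE 0.15, adjusted p 0.0032 in edgeR). Of 16 genes of the RNA exosome and intron debranching, 5 rose and 3 fell in total RNA, again near 53.2%. Dis3, a nuclease of the exosome, rose by 0.27 (SE 0.06) and Exosc9 fell by 0.22 (SE 0.05), while Exosc7 rose in total RNA (0.67, SE 0.05), polysomes (0.66, SE 0.13) and subpolysomes (0.43, SE 0.15).

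Among the 10 other noncoding hosts tested in total RNA, 1 rose and 0 fell, against 27% and 26.3% of all genes. Snhg18 rose by 0.64 in total RNA (SE 0.25, adjusted p 0.049 in edgeR), with overlapping libraries at 2.57 ± 0.78 CPM in KO organoids and 1.622 ± 0.42 CPM in WT organoids, and by 1.27 in polysomes (SE 0.36, adjusted p 0.014 in edgeR), where 7 were tested. Snhg17, at 29.4 ± 3.42 CPM in KO organoids and 30.2 ± 3.98 CPM in WT organoids, had a log2 fold change of -0.06 (SE 0.10). Protein-coding hosts split 6 higher and 3 lower of 24 in total RNA, against the same shares of all genes, with a median of -0.01. Hspa8 fell by 0.45 (SE 0.04) and Eif4g2 by 0.25 (SE 0.04), while Toe1 rose by 0.61 (SE 0.06). Ribosomal protein genes went 42 higher and 0 lower of 77 in total RNA, beside 27% higher and 26.3% lower over all genes, with a median of 0.12.

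In the cancer organoids the 9 hosts summed to 230 and 168 CPM in the libraries labelled KO and 221 and 214 CPM in those labelled WT. These sums were below every organoid total RNA library, but the cancer libraries form a set of their own, with fewer processing tools named for them, so set and tissue cannot be told apart. Gas5 had 77.3 and 67.5 CPM in libraries labelled KO, against 80.7 and 74.5 CPM in libraries labelled WT, and libraries of both labels overlapped for all 9, while 21% of all genes had no overlap (7.85% with KO labels above and 13.2% below). None of the 9 passed by edgeR or DESeq2, and none had an unadjusted p below 0.05 in edgeR. Of all genes 0% passed by edgeR, 96 of 12681 had an unadjusted p below 0.05, and 11 passed by DESeq2. Log2 fold changes of the libraries labelled KO over those labelled WT ranged from -0.39 (2410006H16Rik) to 0.34 (Snhg5), with standard errors of 0.15 to 0.50. Since Arid1a did not follow the labels, no direction is drawn from them.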

How the data were processed

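Whole-number read counts per gene symbol were used as the authors deposited them, with no normalization, for 24421 genes in 22 libraries. HTSeq and the build mm10 are listed for all libraries and Bowtie for 18 of them, not the 4 cancer ones, per the submitters' processing notes. Versions, counting annotation and strand setting were not given in any source used here. The members, lists and tests were chosen with earlier results of these data known. Named genes are all 9 hosts, the 10 nearest patterns, neighbours, markers, Snhg17 and genes picked from the 3 of smallest p per list. The last are a selection: Exosc2 in polysomes and Skiv2l2, Nop58 and Ap1g1 in subpolysomes also passed, all higher in KO organoids, and are not described. Toe1, described for total RNA only, also passed as higher in polysomes (0.62, SE 0.13) and subpolysomes (0.61, SE 0.13). Hspa8 (-0.35, SE 0.13) and Eif4g2 (-0.41, SE 0.15) also passed as lower in polysomes.

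From the counts, edgeR 4.0.16 in R 4.3.3 was run with TMM scaling, filterByExpr, glmQLFit and glmQLFTest, with Benjamini-Hochberg adjustment over all genes tested at 0.05. Each kind of RNA was fitted on its own 6 libraries, the cancer set on 4, and interactions and fraction ratios on 12. Each standard error is the absolute log2 fold change divided by the root of its F statistic. Nearest patterns used log2(CPM + 0.5). The fits were also run on simulated data, for total RNA and the interaction of polysomes against subpolysomes only. The spread and effects simulated were set by hand and not those of the hosts, so nothing is drawn from that run for the calls given here. Alternatives were other scalings, no filter, Rn45s left out, DESeq2 1.42.0, the replicate block, all 18 organoid libraries in 1 fit and leaving out each library.

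Replicate numbers came from the labels and were checked by correlating deviations from group means. They paired KO and WT polysome libraries (0.251, 0.260 and 0.452) and polysome with subpolysome libraries of each genotype (0.104 to 0.359). Libraries of unlike number stood at -0.391 to 0.102 and at -0.300 to 0.082 in the same order. In total RNA the numbers did not pair KO with WT throughout. Same-numbered libraries there correlated at 0.330, 0.127 and -0.137, and those of unlike number at -0.323 to 0.275. KO and WT subpolysome libraries of the same number correlated at 0.109, 0.086 and 0.118, and those of unlike number at -0.111 to -0.002. Replicate libraries of a group differed by 11.9 to 247 times the sampling noise of a chi-square statistic, so none was a copy.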

Additional observations from a re-analysis of the deposited data

How the results depend on the processing

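In total RNA 6 of 9 passed, 4 to 6 when 1 library was left out, and 2 in the fit of all 18 organoid libraries. In polysomes 1 passed, 2 with the replicate block, 2 in the fit of all 18 libraries, and 1 to 2 when 1 library was left out. In subpolysomes 3 passed, 4 with the replicate block, and 0 to 4 when 1 library was left out. There the same-numbered KO and WT libraries correlated weakly, at 0.086 to 0.118. The block changed no call in the 3 interactions or the cancer libraries, where 0 passed in every setting, also with the crossed pairing, added after seeing the data because same-numbered cancer libraries correlated at -0.408.

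With library totals in place of TMM, the polysome to subpolysome medians were -4.5073 in KO organoids and -4.7579 in WT organoids, and the subpolysome to total RNA medians 2.2519 and 2.3015. Leaving out 1 library moved the WT medians over -5.7763 to -5.4594 (polysome to subpolysome) and -2.5109 to -2.2302 (polysome to total RNA).

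Members with log2 fold changes near 0 changed sign in polysomes without passing: Snhg5 with library totals (0.0007), Snhg12 with library totals (0.0268) and with relative log expression size factors in edgeR (0.0007), though not with DESeq2 (-0.0006). When 1 library was left out, polysome values ranged from -0.097 to 0.239 for Snhg1, from -0.129 to 0.017 for Snhg5, from -0.323 to 0.033 for Snhg8, from -0.193 to 0.191 for Snhg12, from -0.319 to 0.0036 for Gas5 and from -0.156 to 0.201 for 2410006H16Rik, and subpolysome values of Snhg1 from -0.137 to 0.067. The cause was not tested. Of 117 values each, 103 in total RNA, 100 in polysomes and 106 in subpolysomes kept their direction and side of the threshold, and all 38 values of each polysome interaction of Epb4.1l4aos and Snhg5 did.

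Levels per kilobase, with the union of exons added after seeing the data, changed their order as the report gives it. In polysomes Epb4.1l4aos rested on 137 to 355 counts per library.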
